A study of Mus musculus with 43 samples.

Results

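Alveolar macrophages (AM), the phagocytes that live in the airspaces of the lung, were compared between newborn mice kept in high oxygen and newborn mice kept in air. The comparison rests on 11 of the 43 libraries of the series, chosen by their labelled source and by no measured value: 5 of hyperoxic AM and 6 of normoxic AM. Hyperoxic pups breathed a fraction of inspired oxygen of 0.9 for 1.5 days, and normoxic pups breathed air for the same time. All pups were C57BL/6 neonates from litters found within 6 hours of birth and then mixed and assigned to a condition at random. Cells were sorted from perfused and digested whole lung as SiglecFhi CD11chi. The hyperoxic libraries are 2 of litter 93, 1 of litter 100 and 2 of litter 108, and values of single hyperoxic libraries stand in that order throughout. The normoxic libraries are 2 of each litter. Which pup or pups gave each library is not in the labels.

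Fetal monocytes that enter the airspace around birth become AM under granulocyte-macrophage colony-stimulating factor, and the young cells still divide while they take up surfactant lipid. High oxygen raises the production of superoxide and hydrogen peroxide inside cells. The transcription factor NRF2 answers oxidants and electrophiles by switching on genes that import cystine, make glutathione, regenerate thioredoxin and break down haem. The tumour suppressor p53 answers DNA damage through Cdkn1a, which encodes the inhibitor p21 of cyclin-dependent kinases, and a cell that stops in the cycle loses the transcripts of DNA replication and of mitosis.

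Totals were 551960 to 1636916 counts in the hyperoxic libraries and 570769 to 1701878 in the normoxic libraries. Siglecf, the gene of the sort marker Siglec-F, averaged 86.4 CPM (counts per 1000000 counts, scaled) in hyperoxic AM and 131 CPM in normoxic AM. Each of the 11 AM libraries held at least 68.6 CPM of it, and no library of the other 3 sorted populations held more than 31.4 CPM. Itgax, which encodes CD11c, averaged 282 CPM in hyperoxic AM and 209 CPM in normoxic AM. Libraries of the sorted Ly6Clo population reached up to 289 CPM of it, and dendritic cell libraries up to 185 CPM. Xist, which marks female cells, exceeded 50 CPM in 2 of 5 hyperoxic and 3 of 6 normoxic libraries, and the Y-linked gene Ddx3y did so in the others, so both sexes were in both conditions. The 4 shallowest libraries had under 1000000 counts: 3 hyperoxic ones (litters 93 and 100) and 1 normoxic one (litter 100). Leaving them out leaves hyperoxic AM of litter 108 alone, so that depth and litter cannot be told apart in that alternative.

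Under hyperoxia 11 genes rose in AM. They fall into p53 targets (Cdkn1a, Ccng1, Zmat3), enzymes of haem and glutathione chemistry (Blvrb, Esd), phagocyte genes (Clec4d, Itgam, Slc11a1, Creg1), and the genes Rnf128 and Dst. Log2 fold changes ran from 0.77 for Creg1 to 2.82 for Slc11a1. Among 9986 genes tested these 11 are 0.11%, at an adjusted p under 0.05 in edgeR's quasi-likelihood test with litter as a block. No gene was called lower (0.0%), while 467 genes were lower at an unadjusted p under 0.05 (4.68%), and 523 were higher (5.24%), which makes 990 in all (9.91%). DESeq2 called 73 genes higher and 36 lower, with all 11 among them. Limma voom called 13 higher and 0 lower, with 10 of the 11 among them and Slc11a1 not called. In 10 of the 11 called genes every hyperoxic library lay above every normoxic library, which held for 48 of all genes (0.481%). All 11 had a positive difference within each of the 3 litters, while 3193 of all genes (32.0%) had the same sign in the 3 litters in either direction.

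The calls depended on which libraries entered the fit. Without litter 93, without the 4 libraries under 1000000 counts, or with detected genes per library added as a covariate, edgeR called 0 genes (713, 626 and 425 at an unadjusted p under 0.05), and the 11 kept positive log2 fold changes of 0.74 to 3.17, 0.67 to 3.16 and 0.59 to 2.14 in those fits. Clec4d, Cdkn1a, Blvrb, Rnf128 and Esd kept their call when any single library was left out. The other 6 lost it in at least 1 such fit, with the highest adjusted p without the hyperoxic library of litter 100 in each case: 0.0765 for Creg1, 0.0935 for Ccng1, 0.295 for Zmat3, 0.228 for Itgam, 0.343 for Dst and 0.295 for Slc11a1. That fit called 5 genes. Leaving out a normoxic library of litter 108 gave 5 calls (replicate 5) or 7 (replicate 6), and both fits lost Ccng1, Zmat3, Itgam and Slc11a1, with adjusted p of 0.0553 to 0.143. Creg1 was also lost without normoxic replicates 2 and 5 (0.0505 and 0.0585), and Ccng1 without hyperoxic replicate 2 of litter 93 (0.0579). Dst was also lost without normoxic replicate 1 or 5 or hyperoxic replicate 1, 2 or 5 (0.0506 to 0.0994), and Slc11a1 without normoxic replicate 1 or hyperoxic replicate 2 or 5 (0.0506 to 0.122). More genes were called without 1 hyperoxic library of litter 108 (replicate 4, 39 calls, 9 of them lower) and without 1 normoxic library of litter 100 (replicate 4, 17 calls, 2 of them lower).

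**Figure D1:**
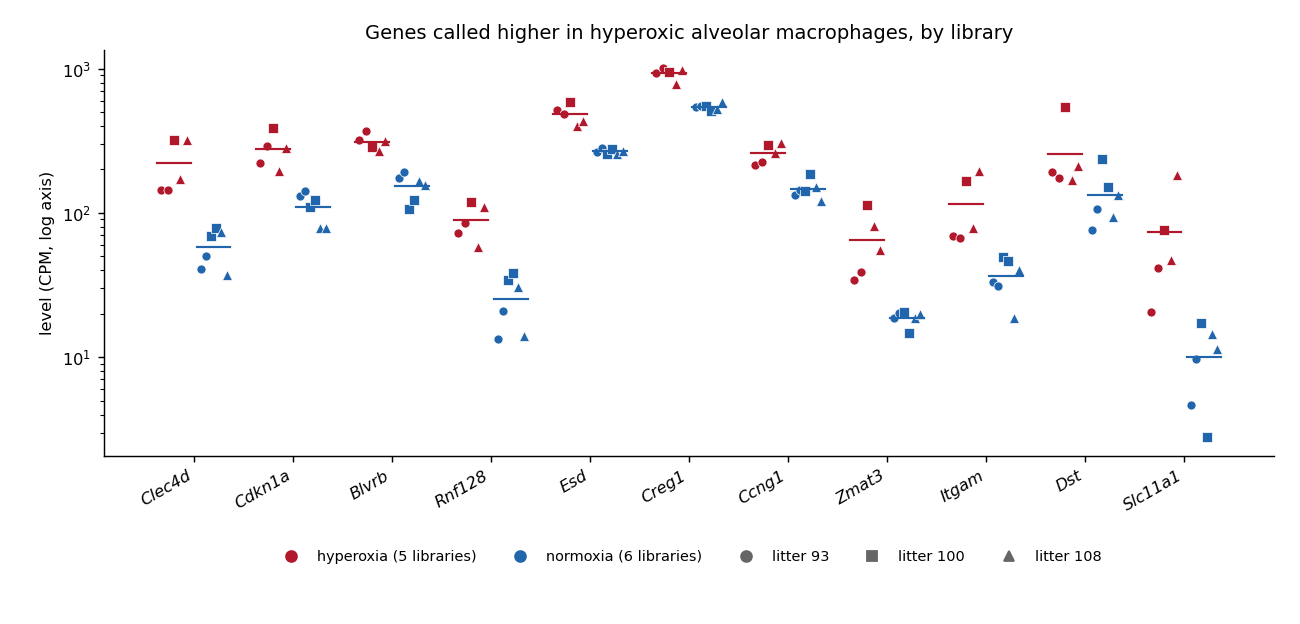
Level of the 11 called genes in each AM library, in CPM on a log axis, with hyperoxia in red on the left of each pair and normoxia in blue on the right. Points are libraries, their shape gives the litter, and bars are group means. The groups are apart for every gene except Dst, for which the lowest hyperoxic value (169 CPM) is below the highest normoxic one (237 CPM).

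The 3 called p53 targets come from a list of p53 arrest and feedback genes with 20 tested members. Another p53 list, of death and metabolism, had 27 tested members and 0 called. Cdkn1a was at 221, 289.6, 386, 196 and 283 CPM in hyperoxic AM, against 78.5 to 142 CPM (median 117) in normoxic AM. Its lowest hyperoxic value is from litter 108 and its highest from litter 100, and the groups do not overlap. The log2 fold change was 1.37 ± 0.17 (standard error, SE, here and below), with an adjusted p of 0.00184, and differences within litters 93, 100 and 108 were 0.89, 1.72 and 1.57 on the log2 CPM scale. Ccng1, which encodes cyclin G1, a partner of the phosphatase that acts on MDM2, was at 214, 225, 293, 259 and 303 CPM in hyperoxic AM, against 121 to 187 CPM (median 142) in normoxic AM. Hyperoxic libraries were again above all normoxic ones, with a log2 fold change of 0.85 ± 0.14 (adjusted p = 0.0165). Zmat3, which encodes a zinc finger protein that binds RNA, was at 34.1, 39.03, 113, 81.6 and 55.4 CPM in hyperoxic AM, against 14.7 to 20.6 CPM (median 19.3) in normoxic AM. The normoxic values were close together, while the hyperoxic ones were lowest in litter 93 and highest in litter 100. Its log2 fold change was 1.72 ± 0.28 (adjusted p = 0.0176), and within litters it was 0.89, 2.63 and 1.76.

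The 20-base p53 site, to which p53 binds as a tetramer, has few matches near start sites, so the promoters of 2 called genes that hold one are shown with the match in capitals. The search covered both strands from 250 bases before to 50 bases after each start site in RefSeq's promoter table (build GRCm38.p6) and allowed 1 mismatch. It found a site in 2 of the 10 called genes with a promoter in the table, in 3 of 17 tested genes of p53 arrest and feedback (Ccng1, Cdkn1a and Gtse1), and in 6 of the 7559 tested genes with a promoter (0.0794%). That list was chosen as p53 genes, so its share describes the list and not the response to oxygen. Only the 250 bases before the start site are printed here and below, 5′ to 3′ on the gene's strand. The Cdkn1a window (chr17:29090729-29090978, plus strand, 1 of 2 windows in the table) has its match starting 51 bases before the start site, and the Ccng1 window (chr11:40755287-40755536, minus strand) has it 195 bases before.
Cdkn1a: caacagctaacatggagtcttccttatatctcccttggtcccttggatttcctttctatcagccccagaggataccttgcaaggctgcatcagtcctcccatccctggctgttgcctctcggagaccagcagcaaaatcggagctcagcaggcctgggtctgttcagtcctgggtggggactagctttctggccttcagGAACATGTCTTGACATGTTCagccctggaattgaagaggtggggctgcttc
Ccng1: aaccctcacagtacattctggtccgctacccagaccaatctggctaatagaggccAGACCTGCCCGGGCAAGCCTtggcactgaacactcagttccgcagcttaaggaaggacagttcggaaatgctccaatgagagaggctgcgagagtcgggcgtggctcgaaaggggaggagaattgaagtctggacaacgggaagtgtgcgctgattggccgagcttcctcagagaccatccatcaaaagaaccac

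Blvrb and Esd encode enzymes of haem and glutathione chemistry. Blvrb, biliverdin reductase B, which reduces flavins and biliverdin, was at 322, 370.1, 285, 269 and 314 CPM in hyperoxic AM, against 106 to 192 CPM (median 162) in normoxic AM. The hyperoxic values lie within a narrow range and above every normoxic one, with a log2 fold change of 0.98 ± 0.13 (adjusted p = 0.00198). Esd, S-formylglutathione hydrolase, which releases glutathione in the removal of formaldehyde, was at 519, 481, 584, 400.1 and 431 CPM in hyperoxic AM, against 254 to 283 CPM (median 267) in normoxic AM. Normoxic libraries hardly differed from each other, and the lowest hyperoxic library stood well above them. Its log2 fold change was 0.86 ± 0.11 (adjusted p = 0.00198), with 0.87, 1.14 and 0.67 within the litters.

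Phagocyte genes made up the next group. Clec4d, a myeloid member of the C-type lectin family that recognises a mycobacterial glycolipid, was at 144, 144, 322, 171 and 321 CPM in hyperoxic AM, against 37.4 to 78.9 CPM (median 59.3) in normoxic AM. The libraries of litter 100 and 1 of litter 108 were highest, and the log2 fold change was 1.97 ± 0.21 (a 3.91-fold difference, adjusted p = 0.000532). Itgam, which encodes CD11b, the alpha chain of complement receptor 3, was at 69.5, 66.7, 165, 78.9 and 196 CPM in hyperoxic AM, against 18.6 to 49.7 CPM (median 36.5) in normoxic AM. The same pair of hyperoxic libraries was highest, the groups do not overlap, and the log2 fold change was 1.70 ± 0.28 (adjusted p = 0.0186). Slc11a1, which encodes NRAMP1, a metal transporter of the phagosome membrane, was at 20.4, 41.5, 75.7, 47.2 and 183 CPM in hyperoxic AM, against 2.79 to 17.2 CPM (median 10.5) in normoxic AM. It spans a wide range within hyperoxia, with its lowest value in litter 93 and its highest in litter 108, and its log2 fold change was 2.82 ± 0.46 (adjusted p = 0.0234). Creg1, which encodes a glycoprotein of lysosomes, was at 931, 1003, 953, 776 and 982 CPM in hyperoxic AM, against 505 to 586 CPM (median 544) in normoxic AM. Its log2 fold change of 0.77 ± 0.11 (adjusted p = 0.00486) was the smallest of the 11, and its groups are widely apart relative to their spread.

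CD11b and NRAMP1 are also found on monocytes and neutrophils, so markers of these cells are given beside the phagocyte genes. The summed level of 15 classical monocyte markers was 2718 to 4678 CPM in hyperoxic AM and 2603 to 3559 CPM in normoxic AM, with all 15 detected. That of 17 neutrophil markers was 266 to 1706 CPM in hyperoxic AM and 283 to 986 CPM in normoxic AM. Ly6g, which defines mouse neutrophils, had 0 counts in all 11 libraries. No library of the other 3 populations held more than 10.7 CPM of it, so its absence says little about neutrophil RNA. The granule genes Ngp, Camp and Ltf reached 445, 162 and 56.3 CPM in hyperoxic AM, against 26.96, 14.2 and 9.44 CPM in normoxic AM. Their lowest value was 0 in both conditions. S100a9, Retnlg and Csf3r reached 269, 119 and 24.5 CPM in hyperoxic AM, and more in normoxic AM (278, 154 and 29.7 CPM). Over the hyperoxic libraries the monocyte sums were 4420, 4025, 4678, 3178 and 2718 CPM. The neutrophil sums were 372, 1706, 877, 367 and 266 CPM, and Itgam was at 69.5, 66.7, 165, 78.9 and 196 CPM. The top genes of these sums are Lyz2 for monocytes and S100a8 for neutrophils. Ly6c2 averaged 42.2 CPM in hyperoxic and 22.5 CPM in normoxic AM, Vcan 20.8 and 6.58 CPM, and F13a1 5.29 and 7.51 CPM. The part of these cells in the result was not tested. In sorted bulk samples fewer cells of a type and less RNA per cell cannot be told apart.

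Rnf128 and Dst complete the called genes. Rnf128, which encodes the membrane ubiquitin ligase GRAIL, was at 72.2, 85.6, 118, 58.1 and 110.2 CPM in hyperoxic AM, against 13.3 to 38.4 CPM (median 25.8) in normoxic AM. The log2 fold change was 1.97 ± 0.26 (adjusted p = 0.00198), and differences were of similar size in the 3 litters (2.18, 1.68 and 1.90). Dst, which encodes dystonin, a linker between cytoskeletal filaments, was at 191, 174, 538, 169 and 213 CPM in hyperoxic AM, against 76.5 to 237 CPM (median 120.2) in normoxic AM. Both groups have their highest value in litter 100, so the groups overlap while every within-litter difference is positive (1.004, 1.50 and 0.75). The log2 fold change was 1.03 ± 0.17 (adjusted p = 0.0202).

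The next 19 genes by p among those with the same sign in all 3 litters comprised 9 with a higher and 10 with a lower estimate in hyperoxic AM, and none passed an adjusted p of 0.05. On the higher side stood 3 further genes of oxidant defence. Gclm, the modifier subunit of the enzyme that starts glutathione synthesis, was at 164, 181, 132, 155 and 168 CPM in hyperoxic AM, against 74.7 to 110.3 CPM (median 88.4) in normoxic AM. The groups do not overlap, with a log2 fold change of 0.84 ± 0.16 and an adjusted p of 0.0517. Slc7a11, the cystine importer xCT, was at 146, 238, 652, 246 and 526 CPM in hyperoxic AM, against 36.5 to 111 CPM (median 64.9) in normoxic AM. Its log2 fold change of 2.41 ± 0.38 was the largest of the 9 (adjusted p = 0.0683). Hmox1, the haem oxygenase that opens the haem ring, was at 425, 458, 144, 223 and 366 CPM in hyperoxic AM, against 105 to 249.6 CPM (median 153) in normoxic AM. The library of litter 100 and 1 of litter 108 lie within the normoxic range, and the log2 fold change was 0.84 ± 0.18 (adjusted p = 0.116). Mdm2, the ubiquitin ligase that is both a target and an inhibitor of p53, was at 110.4, 171, 225, 171 and 220.4 CPM in hyperoxic AM, against 81.7 to 115 CPM (median 91.4) in normoxic AM (log2 fold change 0.91 ± 0.18, adjusted p = 0.0683). One hyperoxic library of litter 93 overlaps the normoxic range. The other 5 of the 9 were the immune checkpoint ligand Cd274 (0.90 ± 0.18), the creatine transporter Slc6a8 (1.44 ± 0.29), the hepatocyte growth factor receptor Met (1.34 ± 0.30), the immunity-related GTPase Irgm2 (1.78 ± 0.41) and the scavenger receptor Marco (0.65 ± 0.15), with adjusted p between 0.0887 and 0.160.

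Of the 10 genes with lower estimates, Mcm6, Lig1, Mcm2 and Rpa2 belong to the list of DNA replication and S phase. Mcm6, a subunit of the replicative helicase, was at 88.6, 99.5, 34.9, 72.6 and 52.9 CPM in hyperoxic AM, against 87.5 to 164 CPM (median 126) in normoxic AM. The pair of litter 93 overlaps the lowest normoxic values, and the log2 fold change was −0.96 ± 0.18 (adjusted p = 0.0533). Lig1, the ligase that joins Okazaki fragments, was at 53.1, 51.6, 9.70, 16.3 and 34.6 CPM in hyperoxic AM, against 60.02 to 87.5 CPM (median 73.4) in normoxic AM. All hyperoxic values lie below the normoxic ones (log2 fold change −1.32 ± 0.28, adjusted p = 0.0993). Further ones were Mcm2 (−0.95 ± 0.20), Rpa2, a subunit of the single-strand binding protein (−0.98 ± 0.22), Cdca7, a chromatin factor of dividing cells (−1.09 ± 0.24), Zgrf1, a helicase of DNA repair (−2.61 ± 0.56), and the histone methyltransferase Ezh2 (−1.01 ± 0.22). Aldh18a1, which makes the proline precursor, had −1.11 ± 0.23, and Shmt2, the mitochondrial enzyme of serine and folate metabolism, had −0.99 ± 0.22. Txnip, which encodes an inhibitor of thioredoxin, was at 179.9, 188, 171, 305 and 210.3 CPM in hyperoxic AM, against 265 to 385 CPM (median 343) in normoxic AM (log2 fold change −0.68 ± 0.14, adjusted p = 0.0887). In Txnip 4 of the 5 hyperoxic libraries lie below the normoxic range, and 1 of litter 108 lies inside it.

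The 28 lists of pathway and cell-state genes give the wider picture, beside a median log2 fold change over all tested genes of −0.010 and a positive estimate in 48.8% of them. Estimates were above 0 in most members of the NRF2 and interferon lists and below 0 in nearly all members of both cell cycle lists. The list of p53 arrest genes held 3 of the called genes, and 12 of its 20 tested members were above 0. Tested members are those that passed the filter on low counts (20 of 24 listed for p53 arrest, 49 of 53 for replication, 62 of 64 for mitosis, 29 of 43 for interferon gamma), so shares refer to these and not to whole lists.

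**Figure D2:**
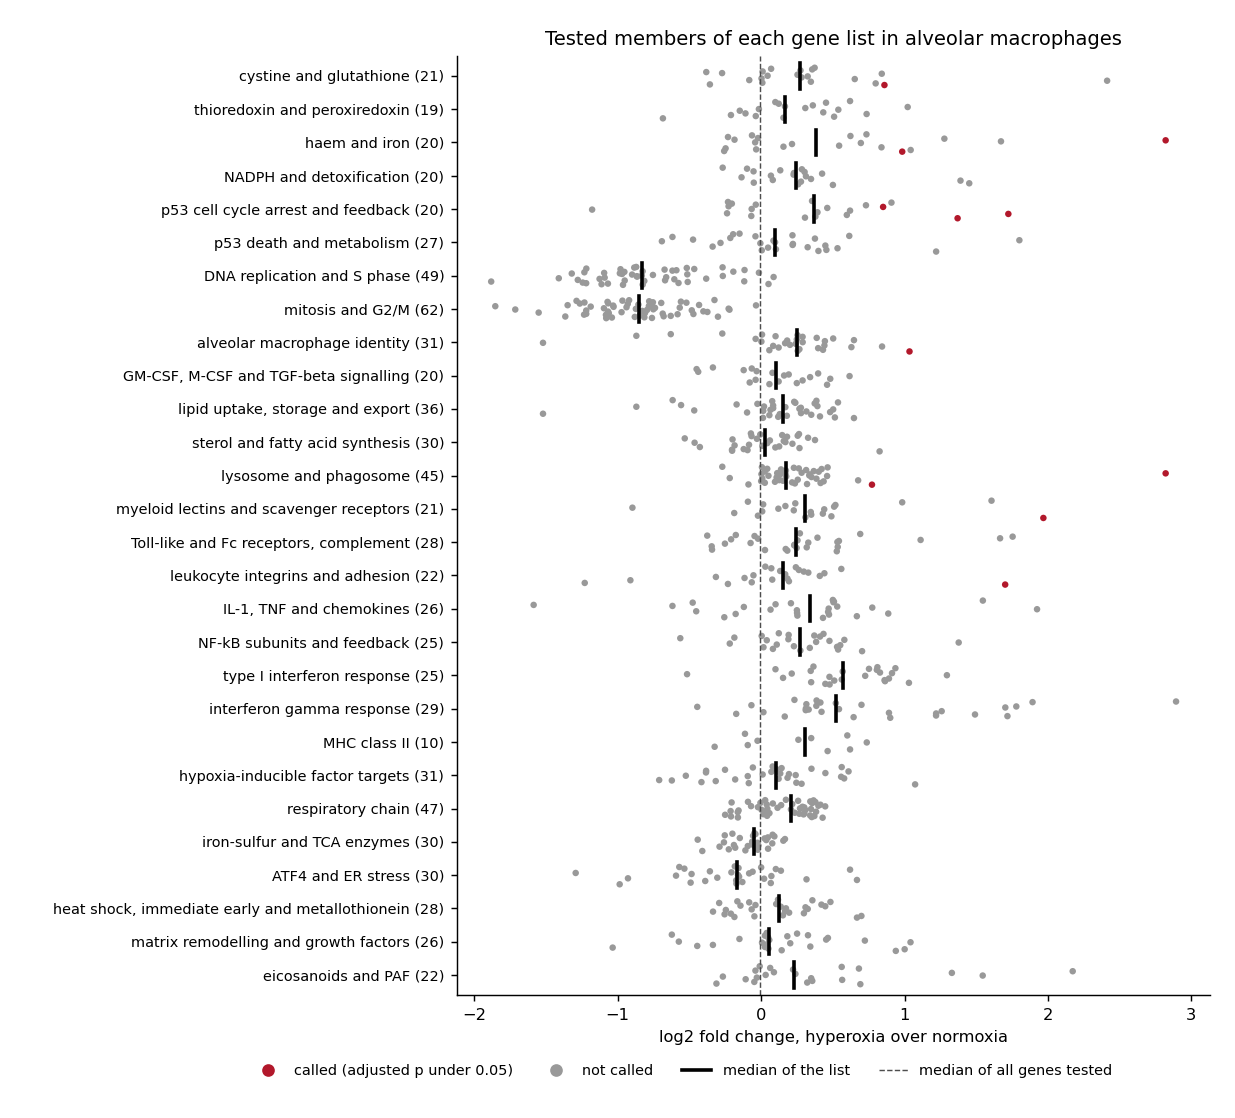
Log2 fold change, hyperoxia over normoxia, of every tested member of 28 gene lists in AM, with the number of tested members after each name. Red points are called genes, black bars are list medians and the dashed line is the median of all genes tested. The bars of DNA replication and of mitosis lie at −0.83 and −0.85, to the left of all other lists shown.

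In the list of cystine and glutathione genes 17 of 21 tested members had an estimate above 0, with a median of 0.27, and 1 passed the test (Esd). At an unadjusted p under 0.05, 8 were higher and 1 was lower. Averaged over the list, log2 CPM was 7.31, 7.29, 7.13, 7.28 and 7.33 in hyperoxic AM, against 6.81 to 7.03 (median 6.96) in normoxic AM. No hyperoxic library reached down to the normoxic range. Besides Esd, Gclm and Slc7a11, all hyperoxic libraries were above all normoxic ones in Mgst1, a membrane glutathione transferase (419 to 519.9 CPM in hyperoxic AM, 312 to 388 CPM in normoxic AM). The same held for Gsr, glutathione reductase (399.8 to 469.8 CPM in hyperoxic AM, 297 to 373 CPM in normoxic AM), and for Gpx4, the peroxidase of membrane lipid peroxides (58.1 to 70.9 CPM in hyperoxic AM, 45.4 to 53.7 CPM in normoxic AM). Their log2 fold changes were small, at 0.36 ± 0.11, 0.32 ± 0.11 and 0.35 ± 0.18, and did not pass the test (adjusted p = 0.263, 0.285 and 0.528).

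Of the genes of thioredoxin and peroxiredoxin 13 of 19 tested members were above 0 (median 0.17) and 0 passed the edgeR test, with 7 higher and 1 lower at an unadjusted p under 0.05. DESeq2 called 5 higher and 1 lower, and limma voom called 0. Srxn1, sulfiredoxin, which repairs overoxidised peroxiredoxins, was at 85.8, 88.1, 98.99, 65.3 and 103 CPM in hyperoxic AM, against 18.9 to 59.7 CPM (median 45.1) in normoxic AM. It did not overlap between the groups (log2 fold change 1.02 ± 0.24, adjusted p = 0.161). Txnrd1, thioredoxin reductase, was at 202, 234, 305, 171 and 215 CPM in hyperoxic AM, against 99.8 to 180.4 CPM (median 129) in normoxic AM, and overlapped in 1 hyperoxic library of litter 108 (log2 fold change 0.74 ± 0.18, adjusted p = 0.161). Cat, catalase, was at 245 to 300.4 CPM in hyperoxic AM and 169 to 234 CPM in normoxic AM, again without overlap (log2 fold change 0.45 ± 0.12, adjusted p = 0.200). Prdx1 (0.54 ± 0.15) and Txn1 (0.43 ± 0.17) had positive pooled estimates, with 0.10 and −0.028 within litter 108, but both have processed pseudogenes that can share their reads, so their counts are uncertain.

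The haem and iron list had a median of 0.38, with 12 of 20 members above 0 and 2 called (Blvrb and Slc11a1). Its mean log2 CPM was 6.33, 6.60, 6.50, 6.50 and 6.48 in hyperoxic AM, against 5.74 to 6.16 (median 6.04) in normoxic AM. All 5 hyperoxic values lie above the normoxic range. Flvcr1, a transporter first described as a haem exporter, was at 46.3 to 122 CPM in hyperoxic AM and 31.3 to 82.6 CPM in normoxic AM (log2 fold change 0.70 ± 0.20, adjusted p = 0.228). The ferritin chains had log2 fold changes of 0.54 ± 0.20 for Fth1 and 0.62 ± 0.16 for Ftl1, which are uncertain for the same reason as Prdx1. Blvra, the main biliverdin reductase, had −0.042 ± 0.13, unlike Blvrb. Lcn2, lipocalin 2, was at 1.26 to 107 CPM in hyperoxic AM and 1.49 to 33.02 CPM in normoxic AM. In the list of NADPH and detoxification 15 of 20 members were above 0 (median 0.24); 0 were called by edgeR, 2 by DESeq2 and 0 by limma voom, with 5 higher at an unadjusted p under 0.05. Its mean log2 CPM was 6.59 to 6.80 in hyperoxic AM and 6.36 to 6.52 in normoxic AM, without overlap. Pgd, an enzyme of the pentose phosphate pathway that makes NADPH, was at 364 to 450.3 CPM in hyperoxic AM and 243 to 349.9 CPM in normoxic AM (log2 fold change 0.43 ± 0.12, adjusted p = 0.228). Nfe2l2, the gene of NRF2 itself, had a log2 fold change of 0.31 ± 0.14 (adjusted p = 0.477). Without the 4 libraries under 1000000 counts the medians were 0.22 for cystine and glutathione and 0.11 for thioredoxin and peroxiredoxin. They were 0.25 for haem and iron and 0.13 for NADPH and detoxification. With detected genes as a covariate these medians were 0.32, 0.21, 0.33 and 0.12 in that order. Leaving out the same libraries, Fth1 had −0.060 and Ftl1 0.20.

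The core of the antioxidant response element, TGACNNNGC, to which NRF2 binds with a small MAF protein, was searched on both strands of the same windows. It was found in 21 of 68 tested NRF2-list genes with a promoter (30.9%) and in 1326 of the 7559 tested genes with one (17.5%). Shares of single NRF2 lists ran from 17.65% (cystine and glutathione) to 42.1% (NADPH and detoxification). Among the called genes with a promoter 1 of 10 held it (Cdkn1a, 10.0%). These lists were chosen as NRF2 genes, so their shares describe the lists and not the response to oxygen. The windows of Gclm (chr3:122245307-122245556, plus strand) and of Txnrd1 (chr10:82858956-82859205, plus strand, 1 of 3 windows) are printed since both genes had positive estimates in the 3 litters. Capitals mark the match, which lies on the opposite strand in both and starts 134 bases before the start site in Gclm and 92 bases before in Txnrd1. Binding was not measured in these libraries.
Gclm: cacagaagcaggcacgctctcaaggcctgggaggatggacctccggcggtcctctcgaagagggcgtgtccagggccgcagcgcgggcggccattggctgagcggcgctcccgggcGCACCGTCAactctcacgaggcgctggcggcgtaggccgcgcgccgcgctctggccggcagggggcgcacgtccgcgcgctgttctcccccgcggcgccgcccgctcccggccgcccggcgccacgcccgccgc
Txnrd1: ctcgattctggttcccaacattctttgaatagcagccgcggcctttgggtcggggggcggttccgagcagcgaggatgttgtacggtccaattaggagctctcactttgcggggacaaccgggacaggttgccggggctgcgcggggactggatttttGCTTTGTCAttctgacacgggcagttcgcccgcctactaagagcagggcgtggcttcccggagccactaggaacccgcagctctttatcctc

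The p53 lists differed in shape. Of the genes of arrest and feedback, Cdkn1a, Ccng1 and Zmat3 rose, the median was 0.37, and the mean log2 CPM was 5.81, 5.86, 6.02, 5.77 and 5.62 in hyperoxic AM, against 5.24 to 5.76 (median 5.60) in normoxic AM, with overlap. Estimates were above 0 in 12 of its members and below 0 in 8. The latter include Ckap2, a spindle protein of dividing cells (−1.18 ± 0.33, adjusted p = 0.223). They also include p53 target and feedback genes with estimates near or below 0: Sesn1 (−0.037 ± 0.46), Btg2 (−0.066 ± 0.17), Mdm4 (−0.068 ± 0.22) and Ppm1d (−0.24 ± 0.28). Of the genes of death and metabolism 17 of 27 were above 0 (median 0.10, and −0.022 without litter 108), 0 were called by edgeR, 1 by DESeq2 and 0 by limma voom, with 4 higher and 1 lower at an unadjusted p under 0.05. Bax, a pore former of the mitochondrial death pathway, was at 372 to 469.6 CPM in hyperoxic AM and 299 to 371 CPM in normoxic AM, without overlap (log2 fold change 0.32 ± 0.11, adjusted p = 0.301). Psrc1, a spindle protein induced by p53, was at 16.4, 21.4, 13.6, 17.2 and 30.9 CPM in hyperoxic AM, against 1.74 to 13.7 CPM (median 6.84) in normoxic AM (log2 fold change 1.80 ± 0.48, adjusted p = 0.202).

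Genes of DNA replication and S phase had negative estimates in 47 of 49 tested members (median −0.83), and genes of mitosis and G2/M in 62 of 62 (median −0.85). None passed the edgeR test; 33 and 35 were lower at an unadjusted p under 0.05. DESeq2 called 14 replication and 7 mitosis genes lower, and limma voom called 0 in both. The mean log2 CPM of the replication list was 5.86, 5.75, 4.32, 5.10 and 4.72 in hyperoxic AM, against 5.64 to 6.22 (median 5.91) in normoxic AM. That of the mitosis list was 6.24, 6.04, 4.14, 4.73 and 4.16 in hyperoxic AM, against 5.45 to 6.30 (median 6.08) in normoxic AM. The pair of litter 93 lies within the normoxic range in both lists, and the other 3 hyperoxic libraries lie below it. Within litters 93, 100 and 108 the median difference was −0.43, −1.25 and −0.90 for replication and −0.12, −1.52 and −1.29 for mitosis.

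Single cell cycle genes followed that split by litter. Ccna2, cyclin A, was at 112, 117, 27.2, 40.8 and 20.2 CPM in hyperoxic AM, against 94.8 to 162 CPM (median 116) in normoxic AM (log2 fold change −1.22 ± 0.29, adjusted p = 0.170). Birc5, survivin, of the chromosomal passenger complex, was at 302, 229, 54.3, 136 and 63.6 CPM in hyperoxic AM, against 137 to 308 CPM (median 248) in normoxic AM (log2 fold change −0.83 ± 0.35, adjusted p = 0.473). In both genes the litter 93 pair is within the normoxic range. Gins1, a helicase cofactor, was at 89.9, 62.9, 13.6, 42.6 and 19.5 CPM in hyperoxic AM, against 68.6 to 108 CPM (median 96.5) in normoxic AM (log2 fold change −1.22 ± 0.30, adjusted p = 0.170). Mcm5 (27.2 to 80.4 CPM in hyperoxic AM, 83.7 to 122 CPM in normoxic AM) and the condensin subunit Ncapd2 (9.45 to 30.8 CPM in hyperoxic AM, 31.3 to 68.4 CPM in normoxic AM) were lower in every hyperoxic library than in any normoxic one, including litter 93. Groups did not overlap in this direction for 4 replication and 1 mitosis gene, against 0.411% of all genes.

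Promoters of both cell cycle lists were searched for the E2F site (TTTGGCGC, TTTCCCGC or TTTCGCGC) and for the cell cycle homology region (CHR, TTTGAA), at which the DREAM complex holds genes of dividing cells silent. An E2F match stood in 18 of 39 replication genes with a promoter (46.2%) and in 340 of all 7559 (4.50%). The CHR letters stood in 36 of 51 mitosis genes (70.6%) and in 1073 of all 7559 (14.2%). These lists were built from genes of known cell cycle timing, so the shares describe the lists and not the response to oxygen. The Mcm6 window (chr1:128359706-128359955, minus strand) holds 3 E2F matches, 2 of them overlapping, which start 110 to 47 bases before the start site, and the Kif11 window (chr19:37376132-37376381, plus strand) holds a CHR on the opposite strand 19 bases before it, with all matches in capitals. Kif11, the motor that separates spindle poles, was at 40.9, 36.5, 7.76, 17.2 and 9.45 CPM in hyperoxic AM, against 34.3 to 69.1 CPM (median 49.4) in normoxic AM.
Mcm6: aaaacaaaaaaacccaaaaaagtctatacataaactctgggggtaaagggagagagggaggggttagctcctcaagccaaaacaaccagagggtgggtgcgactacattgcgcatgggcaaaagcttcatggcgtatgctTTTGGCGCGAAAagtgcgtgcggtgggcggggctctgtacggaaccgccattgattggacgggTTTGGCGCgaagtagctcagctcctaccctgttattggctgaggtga
Kif11: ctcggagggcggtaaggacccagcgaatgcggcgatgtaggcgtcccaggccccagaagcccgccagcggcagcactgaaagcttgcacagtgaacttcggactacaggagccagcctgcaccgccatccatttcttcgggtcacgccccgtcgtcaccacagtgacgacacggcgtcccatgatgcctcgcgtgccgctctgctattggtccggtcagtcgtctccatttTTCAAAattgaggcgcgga

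**Figure D3:**
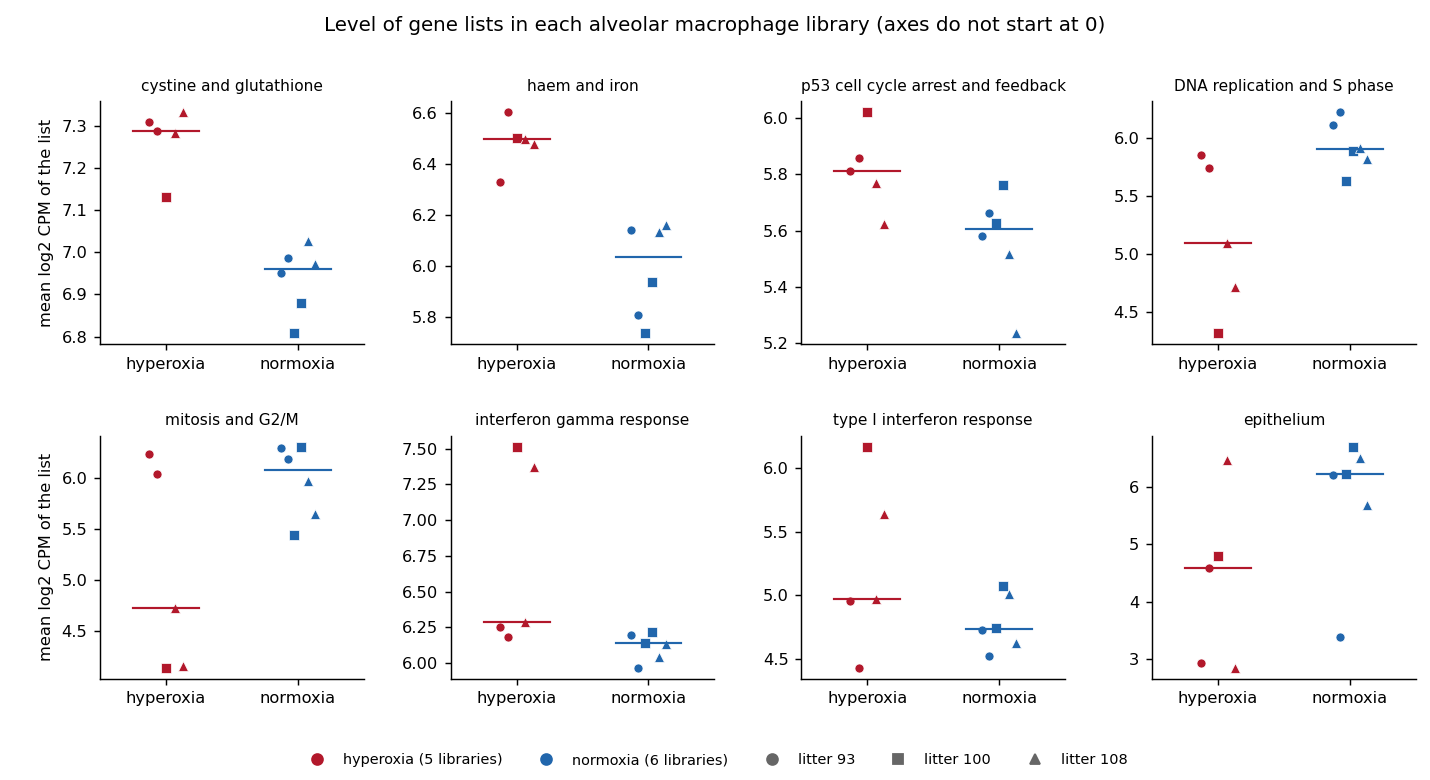
Mean log2 CPM of the tested members of 8 gene lists in each AM library, with hyperoxia in red on the left and normoxia in blue on the right of each panel; point shape gives the litter, bars are medians, and axes do not start at 0. The cystine and glutathione panel and the haem and iron panel show separate groups. In both cell cycle panels the 2 hyperoxic libraries of litter 93 lie within the normoxic range and the other 3 below it.

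Interferon genes were high in part of the hyperoxic libraries. The mean log2 CPM of the interferon gamma list was 6.25, 6.18, 7.51, 6.29 and 7.37 in hyperoxic AM, against 5.97 to 6.22 (median 6.14) in normoxic AM. The library of litter 100 and 1 of litter 108 were above all others, and the other 3 lay within or just above the normoxic range. Of its 29 tested members 26 were above 0 (median 0.52) and 16 were higher at an unadjusted p under 0.05; edgeR called 0, DESeq2 4 and limma voom 0. Igtp, an immunity-related GTPase, was at 31.3, 26.4, 65.99, 12.7 and 109 CPM in hyperoxic AM, against 1.72 to 21.7 CPM (median 11.6) in normoxic AM (log2 fold change 1.89 ± 0.55, adjusted p = 0.253). Tap1, a peptide transporter for MHC class I, was at 31.3, 32.7, 202, 51.7 and 139.8 CPM in hyperoxic AM, against 23.7 to 56.6 CPM (median 38.2) in normoxic AM (log2 fold change 1.22 ± 0.29, adjusted p = 0.161). Cd274, which encodes PD-L1, was at 195, 237, 431, 208 and 416 CPM in hyperoxic AM, against 136 to 189 CPM (median 163) in normoxic AM, and its groups do not overlap.

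The type I interferon list had 24 of 25 members above 0 (median 0.57); edgeR called 0 of them, DESeq2 1 and limma voom 0, with 9 higher at an unadjusted p under 0.05. Its mean log2 CPM was 4.96, 4.43, 6.16, 4.97 and 5.64 in hyperoxic AM, against 4.52 to 5.07 (median 4.74) in normoxic AM. The library of litter 100 and 1 of litter 108 were again the highest, and the other 3 were within or just below the normoxic range. Within litters 93, 100 and 108 the median difference was 0.11, 1.18 and 0.39 for the type I list and 0.064, 0.96 and 0.44 for the interferon gamma list. MHC class II genes varied widely in both groups, with H2-Ab1 at 356, 356, 111, 308 and 366 CPM in hyperoxic AM, against 16.4 to 329 CPM (median 178) in normoxic AM. Their median log2 fold change was 0.30 over 10 tested members, of which 0 had the same sign in the 3 litters. EdgeR, DESeq2 and limma voom called 0 of them, and 1 was higher at an unadjusted p under 0.05.

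Among the other phagocyte lists, 42 of 45 lysosome and phagosome genes were above 0 (median 0.17, with Creg1 and Slc11a1 called) and 17 of 21 lectin and scavenger receptor genes (median 0.31, with Clec4d called). Without the 4 libraries under 1000000 counts these medians were 0.048 and 0.19. With detected genes as a covariate they were 0.053 and 0.078. Cybb, the catalytic subunit of the phagocyte NADPH oxidase, was at 1275, 1179.6, 2309.7, 1051 and 1869 CPM in hyperoxic AM, against 754 to 1329 CPM (median 973) in normoxic AM (log2 fold change 0.68 ± 0.18, adjusted p = 0.202). Clec4n, dectin-2, was at 743 to 1071 CPM in hyperoxic AM and 446 to 789 CPM in normoxic AM (log2 fold change 0.51 ± 0.14, adjusted p = 0.223). Of 28 tested genes of Toll-like and Fc receptors and complement 19 were above 0 (median 0.24); edgeR, DESeq2 and limma voom called 0, with 4 higher and 1 lower at an unadjusted p under 0.05. Ly96, the partner of Toll-like receptor 4, did not overlap between the groups (129 to 175 CPM in hyperoxic AM, 78.9 to 119 CPM in normoxic AM; log2 fold change 0.53 ± 0.16, adjusted p = 0.240). Of the 22 integrin and adhesion genes tested, edgeR called 1 (Itgam). Itgax, which encodes another partner of the beta-2 chain, had 0.44 ± 0.13 (adjusted p = 0.253).

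No gene of the inflammatory lists passed the edgeR test. For the 26 tested genes of IL-1, TNF and chemokines the median was 0.34 (−0.053 without the 4 libraries under 1000000 counts), edgeR and limma voom called 0 and DESeq2 called 3 higher, and 8 were higher and 1 lower at an unadjusted p under 0.05. Il1a was at 386, 336, 367, 192 and 543 CPM in hyperoxic AM, against 94.3 to 261 CPM (median 196) in normoxic AM (log2 fold change 0.89 ± 0.26, adjusted p = 0.261), and Il1rn, the antagonist of its receptor, was at 996, 961, 922, 751 and 967 CPM in hyperoxic AM, against 523 to 839 CPM (median 662) in normoxic AM (log2 fold change 0.43 ± 0.12, adjusted p = 0.203). Cxcl16, a chemokine for lymphocytes, was at 9.54, 10.1, 153, 34.5 and 214 CPM in hyperoxic AM, against 6.71 to 22.3 CPM (median 18.7) in normoxic AM (log2 fold change 1.92 ± 0.67, adjusted p = 0.359). It was high in the same 2 libraries as the interferon genes and within the normoxic range in litter 93. The list of NF-kB subunits and feedback had 22 of 25 members above 0 (median 0.27); edgeR and limma voom called 0 and DESeq2 called 1, with 5 higher at an unadjusted p under 0.05.

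Enzymes and receptors of lipid mediators had a mean log2 CPM of 6.36, 6.33, 6.47, 6.21 and 6.52 in hyperoxic AM, against 6.01 to 6.10 (median 6.06) in normoxic AM. All hyperoxic libraries lay above the normoxic range, although no member passed the edgeR or limma voom test and DESeq2 called 1, with 7 of 22 higher at an unadjusted p under 0.05. The median log2 fold change of the list was 0.23. It was 0.043 without the 4 libraries under 1000000 counts and 0.25 with detected genes as a covariate. Tbxas1, thromboxane synthase, was at 149.9, 213, 215, 164 and 199.7 CPM in hyperoxic AM, against 91.4 to 147 CPM (median 109) in normoxic AM (log2 fold change 0.69 ± 0.16, adjusted p = 0.161), without overlap. Ptafr, the receptor of platelet-activating factor, was at 32.7, 41.5, 148, 37.2 and 78.1 CPM in hyperoxic AM, against 11.9 to 42.9 CPM (median 27.04) in normoxic AM (log2 fold change 1.33 ± 0.35, adjusted p = 0.202). Ptges, prostaglandin E synthase, was at 32.7, 60.4, 107, 13.6 and 183 CPM in hyperoxic AM, against 18.6 to 52.3 CPM (median 25.8) in normoxic AM (log2 fold change 1.54 ± 0.54, adjusted p = 0.349), and 1 hyperoxic library of litter 108 had its lowest value.

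Of 31 genes of AM identity Dst rose, and 26 had an estimate above 0 (median 0.25), with 8 higher and 3 lower at an unadjusted p under 0.05. The median was −0.082 without the 4 libraries under 1000000 counts. Marco was at 369, 364, 557, 347 and 447 CPM in hyperoxic AM, against 218 to 316 CPM (median 274) in normoxic AM, without overlap (log2 fold change 0.65 ± 0.15, adjusted p = 0.160). Bhlhe41, a repressor that restrains AM division, was at 244, 225, 454, 237 and 231 CPM in hyperoxic AM, against 142 to 309 CPM (median 171) in normoxic AM (log2 fold change 0.63 ± 0.15, adjusted p = 0.170). Pparg, the lipid-sensing factor that AM need to mature, had a log2 fold change of −0.038 ± 0.13 (adjusted p = 0.948). Lower estimates were found for Fabp1, a fatty acid binding protein (4.09, 6.29, 5.82, 5.44 and 8.19 CPM in hyperoxic AM, against 11.3 to 25.7 CPM (median 18.98) in normoxic AM), with no overlap and a log2 fold change of −1.52 ± 0.40 (adjusted p = 0.202). Cidec, a lipid droplet protein, had −0.87 ± 0.22 (adjusted p = 0.179), and Siglecf, the sort marker, had −0.63 ± 0.20 (adjusted p = 0.263). Of the 36 tested genes of lipid handling 28 were above 0 (median 0.15); edgeR and limma voom called 0 and DESeq2 called 3, with 9 higher and 3 lower at an unadjusted p under 0.05. Lpl, lipoprotein lipase (0.50 ± 0.14), and Mgll, monoglyceride lipase (0.54 ± 0.14), had the higher estimates. The 30 genes of sterol and fatty acid synthesis had a median of 0.026 (−0.11 to 0.22 over the alternatives), and those of growth factor signalling (GM-CSF, M-CSF and TGF-beta) one of 0.10. EdgeR, DESeq2 and limma voom called 0 in both, with 2 higher and 1 lower and with 2 higher and 0 lower at an unadjusted p under 0.05.

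None of the genes of the metabolic and stress lists passed the edgeR test, and the medians lay between −0.17 and 0.21. The 31 tested targets of hypoxia-inducible factor had a median of 0.11, the 30 iron-sulfur and TCA enzymes −0.051, and the 47 respiratory chain genes 0.21, which was −0.091 without the 4 libraries under 1000000 counts. Slc2a1, the glucose transporter GLUT1, was at 51.8, 39.03, 91.2, 67.1 and 105 CPM in hyperoxic AM, against 16.1 to 44.6 CPM (median 34.2) in normoxic AM (log2 fold change 1.07 ± 0.27, adjusted p = 0.176). Genes of ATF4 and ER stress had a mean log2 CPM of 6.39 to 6.50 in hyperoxic AM and 6.53 to 6.78 in normoxic AM. These ranges do not overlap. Estimates were below 0 in 21 of 30 members (median −0.17). EdgeR and limma voom called 0 and DESeq2 called 2 lower, with 5 lower at an unadjusted p under 0.05. Those 5 were Shmt2, Phgdh, Psph and Psat1 of serine and one-carbon metabolism and the amino acid transporter Slc7a5. Slc7a5, the large neutral amino acid transporter, was at 6.81, 22.7, 15.5, 34.5 and 13.9 CPM in hyperoxic AM, against 40.3 to 51.5 CPM (median 46.7) in normoxic AM (log2 fold change −1.29 ± 0.32, adjusted p = 0.176), and Phgdh, the first enzyme of serine synthesis, was at 43.6, 33.99, 29.1, 36.3 and 41.6 CPM in hyperoxic AM, against 47.8 to 61.98 CPM (median 50.8) in normoxic AM (log2 fold change −0.53 ± 0.20, adjusted p = 0.341). Both were without overlap, as was Shmt2. Atf3, which encodes a stress factor of the same list, had a log2 fold change of 0.67 ± 0.20 (adjusted p = 0.250). Early response and heat shock genes had a median of 0.13 and matrix and growth factor genes one of 0.054. At an unadjusted p under 0.05 there were 3 higher and 1 lower hypoxia-inducible factor targets, 6 higher respiratory chain genes, 0 iron-sulfur and TCA enzymes, 5 higher early response and heat shock genes and 5 higher matrix and growth factor genes. DESeq2 called 1 of the hypoxia-inducible factor targets and 1 of the matrix and growth factor genes higher and 0 of the other 3 lists, and limma voom called 0 in all 5.

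Fold changes went with abundance. The median log2 fold change was −0.20 for the 401 tested genes under 10 CPM, −0.015 for the 2293 genes of 50 to 100 CPM and 0.24 for the 232 genes at 500 CPM or more. Without the 4 libraries under 1000000 counts the last class had a median of −0.060, and with detected genes as a covariate 0.025. The respiratory chain and lysosome lists are of abundant genes, with medians of 0.21 and 0.17 against 0.090 for genes of their abundance. The thioredoxin and peroxiredoxin list (0.17) and the AM identity list (0.25) have the same class median. The cell cycle lists hold genes of middle abundance, for which the class median was −0.015.

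**Figure D4:**
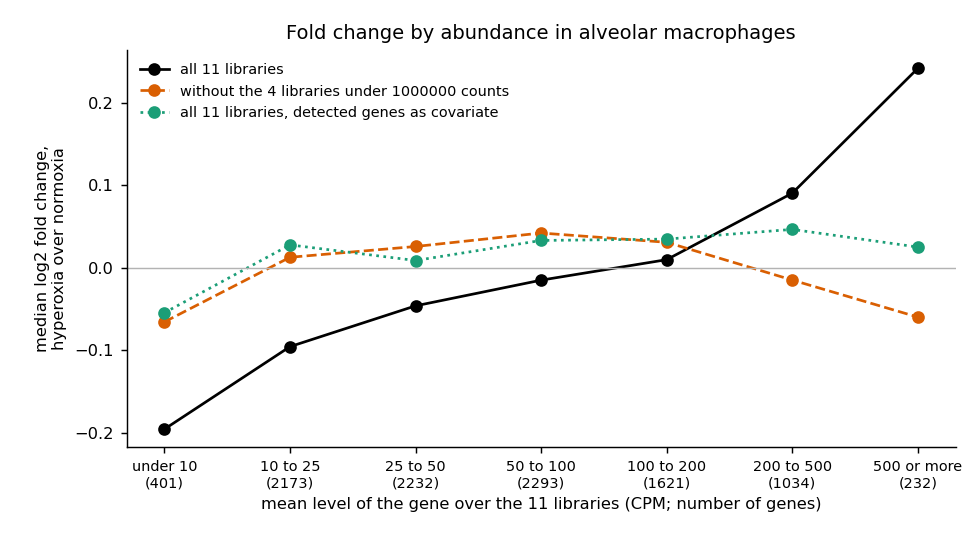
Median log2 fold change, hyperoxia over normoxia, of tested genes in 7 classes of mean level (CPM) in AM, with the number of genes under each class. Lines join all 11 libraries (black), the 7 libraries left without the 4 under 1000000 counts (orange) and the fit with detected genes as covariate (green). The black line goes up with abundance to 0.24, and the other lines stay between −0.066 and 0.046.

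Transcripts of cells outside the gate were measured in the same libraries. Of 19 tested epithelial markers none had an estimate above 0 (median −1.15), and 0 were called by edgeR, DESeq2 or limma voom, with 2 lower at an unadjusted p under 0.05. Without the 4 libraries under 1000000 counts the median was −0.42. Over the alternatives the median of these markers ran from −2.17 (without hyperoxic replicate 4) to −0.080 (with detected genes as a covariate). Their summed level was 595 to 3349 CPM in hyperoxic AM and 905 to 3948 CPM in normoxic AM. It was lowest in 1 hyperoxic library of litter 108 and 1 of litter 93 (595 and 673 CPM), and 1 normoxic library of litter 93 had 905 CPM. Endothelial markers summed to 276 to 1475 CPM in hyperoxic AM and 358 to 1766 CPM in normoxic AM, interstitial macrophage markers to 1721 to 3043 CPM in hyperoxic AM and 1762 to 2365 CPM in normoxic AM, and dendritic cell markers to 534 to 589 CPM in hyperoxic AM and 361 to 622 CPM in normoxic AM. The top gene of the interstitial sum is Mrc1, which averaged 662 CPM in hyperoxic and 598 CPM in normoxic AM. Of 12 tested interstitial markers 10 had an estimate above 0, and edgeR called 0. Their median was 0.48, and 0.032 without the 4 libraries under 1000000 counts. B cell markers summed to 21.4 to 88.9 CPM in hyperoxic AM and 24.4 to 235 CPM in normoxic AM, and T and NK cell markers to 124 to 371 CPM in hyperoxic AM and 96.05 to 373 CPM in normoxic AM. Mesenchymal markers summed to 98.2 to 895 CPM in hyperoxic AM and 209 to 583 CPM in normoxic AM, and eosinophil, mast cell and platelet markers to 54.8 to 337 CPM in hyperoxic AM and 17.1 to 249 CPM in normoxic AM. The ranges overlap for each of these lists. The eosinophil genes Epx, Prg3 and Il5ra, the mast cell gene Mcpt4, the fibroblast gene Lum and the red cell gene Slc4a1 were at 0 in all 11 libraries. The part of these cells in the AM results was not tested.

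The hyperoxia effect in AM was set against its mean in the dendritic cell (DC), Ly6Chi and Ly6Clo libraries in 1 fit of all 43, to see where AM differ. Among 12529 genes 3 differed (0.0239%), and 800 had an unadjusted p under 0.05 (6.39%). The differences, as log2 fold change in AM less the mean of the other 3, were 2.62 ± 0.46 for Slc11a1 (adjusted p = 0.0121), 1.72 ± 0.31 for Itgam (adjusted p = 0.0121) and −2.53 ± 0.50 for Depdc7 (adjusted p = 0.0341). Depdc7 was at 0, 5.04, 1.94, 0.907 and 3.78 CPM in hyperoxic AM, against 5.15 to 13.96 CPM (median 10.1) in normoxic AM. DESeq2 called 16 such differences, these 3 among them, and limma voom called 0 (776 at an unadjusted p under 0.05). Without any 1 of the 3 litters edgeR called 0 differences, as it did without the hyperoxic library of litter 100, without 1 hyperoxic library of litter 108 (replicate 5) and without 1 normoxic library of litter 100 (replicate 4), and it called 6 without 1 normoxic library of litter 108 (replicate 6) and 5 without the 4 libraries under 1000000 counts. Libraries of different populations may come from the same pups, which the labels do not record, and this test takes no account of it.

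For Itgam the log2 fold change was 1.70 ± 0.28 in AM, 0.087 ± 0.17 in DC, −0.043 ± 0.11 in Ly6Chi and 0.075 ± 0.35 in Ly6Clo. For Slc11a1 it was 2.82 ± 0.46 in AM, 0.46 ± 0.15 in DC, 0.015 ± 0.11 in Ly6Chi and 0.52 ± 0.42 in Ly6Clo. The other 9 called genes did not pass the test of the difference (adjusted p = 0.453 to 0.997). Blvrb had similar estimates in all 4 populations (0.98 ± 0.13 in AM, 0.92 ± 0.24 in DC, 0.82 ± 0.31 in Ly6Chi, 0.77 ± 0.20 in Ly6Clo), with a difference of 0.21 ± 0.32. Cdkn1a had 1.37 ± 0.17 in AM, 0.40 ± 0.18 in DC, 0.93 ± 0.28 in Ly6Chi and 0.79 ± 0.19 in Ly6Clo, with a difference of 0.68 ± 0.26. Rnf128 was tested in AM and in Ly6Clo, where it had 2.34 ± 0.36. In the fits of single populations the adjusted p of the called genes ran from 0.362 to 0.894 in DC, 0.758 to 0.999 in Ly6Chi and 0.113 to 0.976 in Ly6Clo.

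**Figure D5:**
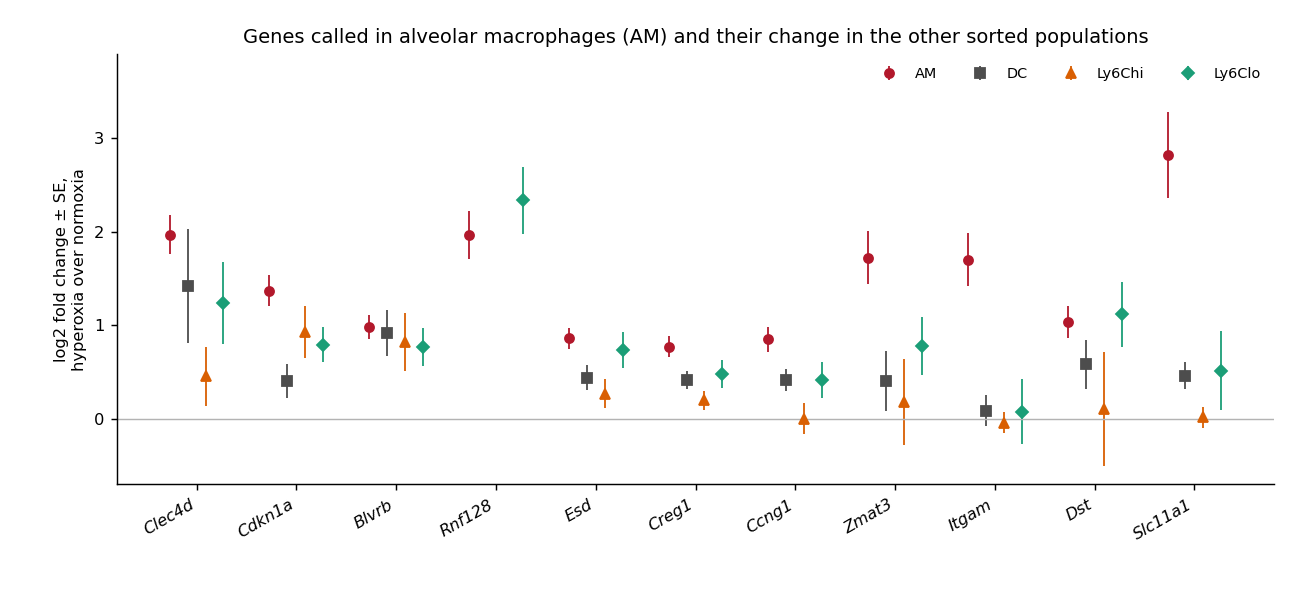
Log2 fold change with its SE, hyperoxia over normoxia, of the 11 called genes in AM (red) and in the DC, Ly6Chi and Ly6Clo libraries, each from a fit of that population. In the other 3 populations Itgam lies between −0.043 and 0.087 and Slc11a1 between 0.015 and 0.52, and Blvrb lies between 0.77 and 0.98 in all 4. Rnf128 has no point in DC and Ly6Chi, where it did not pass the filter on low counts.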

How the data were processed

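RNA of sorted cells was amplified with SMART-Seq V4 and made into Nextera XT libraries without molecular identifiers, per the labels' protocols. The authors deposited whole-number read counts per Ensembl gene. TopHat, HTSeq 0.4.1, SAMtools, Picard, FastQC and the build NCBIM37 are named in the submitters' processing notes, and the use of strand is not given in the sources used here. No count exceeded 4012, or 1.734 per exonic base, so counts of abundant genes may be capped. Symbols came from GENCODE M21 (32919 of 37991 genes), and 0.8281% of counts had none.

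The 5 hyperoxic and 6 normoxic AM libraries were tested with edgeR 4.0.16 (quasi-likelihood F test, robust, TMM scaling, litter as a block) after its filter on low counts (minimum count 10, minimum total 15; 9986 genes kept). Calls needed a Benjamini-Hochberg adjusted p under 0.05 over all genes tested. CPM were scaled by TMM, with a prior count of 1 added before the log2. The same test over all 43 libraries set the AM effect against its mean in the other 3 populations. DESeq2 1.42.0 and limma 3.58.1 (R 4.3.3) were alternatives. The fit was tested on simulated counts. Litters hold both conditions by label, which is the basis of the block. P-values set an effect against the spread between libraries that is left after the litter block, with no term for pups.

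The genes in the text are those called, the next by p with the same sign in all 3 litters up to 30 genes in all, and up to 9 of each list (6 by p and 3 by mean CPM). Genes of lists and markers were chosen with earlier results of these data known, so no test was made over a list.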

Additional observations from a re-analysis of the deposited data

Results flagged for a closer look

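The effect of hyperoxia differed between AM and the mean of the other 3 populations for Slc11a1 (2.62 on the log2 scale), Itgam (1.72) and Depdc7 (−2.53), by the edgeR test of the difference.

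Single libraries lay far from the rest of their group in 15 of 142 groups of values, where chance gives about 1 in 20. Of these, 5 were values of the hyperoxic library of litter 100, which had fewer than 1000000 counts. In log2 CPM it was high for Dst (9.07) and for the mean of the IL-1, TNF and chemokine list (6.92), and low for the means of cystine and glutathione (7.13), MHC class II (6.07) and iron-sulfur and TCA enzymes (6.64). A hyperoxic library of litter 93 (replicate 2) was low for targets of hypoxia-inducible factor (5.90).

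Among normoxic libraries, replicate 2 of litter 93 was low for Met (2.61) and for the means of NF-kB subunits and feedback (5.43), matrix remodelling and growth factors (6.09), classical monocyte (5.74), dendritic cell (4.02) and epithelial markers (3.38). Normoxic replicate 4 of litter 100 was low for Zmat3 (3.96) and for the means of lipid uptake, storage and export (6.90) and of IL-1, TNF and chemokines (5.79).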

How the results depend on the processing

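The main test called 11 genes in AM. DESeq2 called 109, edgeR without a filter on low counts 325, limma voom with sample quality weights (chosen after seeing the data) 25, and 1 fit of all 43 libraries 27. Without litter 93, 108 or the 4 libraries under 1000000 counts the count was 0, 5 and 0, and with detected genes as a covariate 0. Leaving out 1 library gave 5 to 39 calls. Without the litter term (no replicate block) there were 10 calls, and Itgam, Dst and Slc11a1 lost theirs (adjusted p = 0.0573, 0.568 and 0.0573). RLE size factors, limma voom, robust = FALSE, a correction for a count ceiling and leaving out litter 100 gave counts of 9 to 13. None of 749 alternative values of the 30 genes reversed. All 30 were picked by small p in the main test and have the same sign within every litter. The alternatives used all or part of the same AM libraries. A reversal was thus unlikely from the choice of genes, and its absence is no independent check of direction. The median of 26 of 39 lists kept its sign under all 25 alternatives, and that of 13 did not, 7 of them marker lists of other cells.

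For the difference from the other populations (3 calls) DESeq2 gave 16, limma voom 0, no filter 197, leaving out litter 93, 100 or 108 gave 0, the 4 libraries under 1000000 counts left out gave 5, and leaving out 1 AM library gave 0 to 6. The causes were not tested. Genes of a few counts per library, such as Depdc7, have wide errors at this depth, and intervals between libraries include no pup term.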
